A study of Mus musculus with 36 samples.

Results

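Interferon-stimulated genes were followed in the spleens of arthritic and non-arthritic mice: the transcription factors of the response, its antiviral effectors, nucleic acid sensors, ubiquitin-like and ADP-ribose modifiers, chemokines, antigen-processing genes and a feedback inhibitor. The list held 40 genes, and each was read from the probe set of highest mean among those that name only that gene. Of the 40, 38 had such a probe set, among 18193 genes that did on the array. Isg15 and Ifi44 had none and were left out. Mx2 had one, but its mean log2 level of 6.40 lay below the low-signal limit of 6.49, so 37 members entered the tests. The members come from a list of interferon-induced genes and not from a threshold on values, though the list was drawn up with earlier results of these data known.

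Total RNA came from the whole spleens of individual F2 mice at 4 months of age, with 1 Affymetrix mouse genome array for each of 36 mice, 18 labelled arthritic and 18 labelled non-arthritic. The series title describes arthritic mice deficient for the interleukin 1 receptor antagonist, the secreted protein that blocks interleukin 1 at its receptor. The sources used here give no genotype, parental strain, sex or arthritis score for any mouse, and the number of F2 mice stated in the design text differs from its own group sizes. The design text asks whether arthritic mice fall into subgroups.

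Interferons are secreted proteins that bind receptors on nearly all cells. Type I interferons act through a complex holding Stat2 and Irf9 that binds the interferon-stimulated response element in promoters, and Irf1 takes part in the response to interferon gamma. Irf7, itself induced, drives further production of type I interferon, while Usp18 and Socs1 damp the signal. In spleen, macrophages, dendritic cells and lymphocytes all carry the response, and in whole tissue a change in the number of such cells and a change in RNA per cell cannot be told apart.

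The response element was looked for in the promoters, because the members' shared pattern across mice is the main result below. Its core was searched for as GAAA, any 2 bases and GAAA again, on either strand, and it was found in 11 of 29 members with a value here and a promoter window, 37.9%, against 1079 of 27025 genes in the table, 3.99%. A window ran from 250 bases before to 50 bases after an annotated start (RefSeq, build GRCm38.p6), and no other motif was searched. With Isg15 and Ifi44 counted as well, 12 of 31 held it. The members were listed as interferon-induced genes, so such an excess can follow from the choice of list and says nothing about these spleens. Mx1, Mx2, Ifi27l2a, Rtp4, Zbp1, Dhx58, Usp18, Parp9 and Parp14 had no window in the table. The sequences below are those of the 6 members with the motif that varied most closely with the other members, and of Irf7, the member of highest such correlation whose window lacks it. They are written 5′ to 3′ on the strand of the gene, with the motif in capitals, which reads TTTC, any 2 bases and TTTC where it lies on the opposite strand. The annotated starts used for Ifit3, Trim30a and Irf7 lie inside the outer limits of those genes.

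Ifit3 (chr19:34583279-34583578, plus strand): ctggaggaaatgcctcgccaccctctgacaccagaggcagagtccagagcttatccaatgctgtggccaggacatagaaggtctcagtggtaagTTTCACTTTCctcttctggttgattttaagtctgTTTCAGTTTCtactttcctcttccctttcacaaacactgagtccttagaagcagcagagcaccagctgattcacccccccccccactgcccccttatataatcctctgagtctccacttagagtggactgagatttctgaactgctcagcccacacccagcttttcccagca
Ifit1 (chr19:34640639-34640938, plus strand): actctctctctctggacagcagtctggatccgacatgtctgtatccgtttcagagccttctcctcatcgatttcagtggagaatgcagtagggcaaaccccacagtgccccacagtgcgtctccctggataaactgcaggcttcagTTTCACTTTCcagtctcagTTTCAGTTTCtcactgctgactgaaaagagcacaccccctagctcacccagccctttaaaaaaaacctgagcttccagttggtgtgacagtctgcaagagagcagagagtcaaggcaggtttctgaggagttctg
Ifih1 (chr2:62646206-62646505, minus strand): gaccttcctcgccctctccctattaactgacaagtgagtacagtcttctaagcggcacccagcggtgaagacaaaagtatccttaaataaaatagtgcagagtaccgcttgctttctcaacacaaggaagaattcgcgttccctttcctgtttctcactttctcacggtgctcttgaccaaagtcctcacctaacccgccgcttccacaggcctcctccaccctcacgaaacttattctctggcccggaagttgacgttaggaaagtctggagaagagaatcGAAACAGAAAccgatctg
Ifitm3 (chr7:141010695-141010994, minus strand): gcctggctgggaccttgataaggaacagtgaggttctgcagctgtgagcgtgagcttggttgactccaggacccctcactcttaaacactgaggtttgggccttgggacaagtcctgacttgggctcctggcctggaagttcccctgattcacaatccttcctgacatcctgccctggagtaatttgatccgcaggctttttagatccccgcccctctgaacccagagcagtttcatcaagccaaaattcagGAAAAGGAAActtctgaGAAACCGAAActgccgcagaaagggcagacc
Trim30a (chr7:104446076-104446375, minus strand): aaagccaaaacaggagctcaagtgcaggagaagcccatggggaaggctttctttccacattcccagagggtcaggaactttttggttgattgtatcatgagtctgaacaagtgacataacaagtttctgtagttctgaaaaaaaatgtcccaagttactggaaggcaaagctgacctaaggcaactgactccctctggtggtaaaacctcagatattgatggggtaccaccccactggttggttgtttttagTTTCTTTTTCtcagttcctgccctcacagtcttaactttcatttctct
Eif2ak2 (chr17:78882523-78882822, minus strand): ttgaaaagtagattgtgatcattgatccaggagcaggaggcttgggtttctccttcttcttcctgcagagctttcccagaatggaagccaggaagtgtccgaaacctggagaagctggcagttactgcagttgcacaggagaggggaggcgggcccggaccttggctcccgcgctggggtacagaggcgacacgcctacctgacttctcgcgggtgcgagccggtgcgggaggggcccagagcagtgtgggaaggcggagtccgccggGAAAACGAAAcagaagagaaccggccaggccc
Irf7 (chr7:141266375-141266674, minus strand): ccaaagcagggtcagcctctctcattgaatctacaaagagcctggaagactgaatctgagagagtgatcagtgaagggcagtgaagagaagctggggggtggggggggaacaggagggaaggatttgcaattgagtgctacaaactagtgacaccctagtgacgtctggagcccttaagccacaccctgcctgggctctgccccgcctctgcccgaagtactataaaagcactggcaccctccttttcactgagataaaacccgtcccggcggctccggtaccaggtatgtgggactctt

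In Ifit3 the motifs began 156 and 122 bases before the start, and in Ifit1 they began 104 and 85 bases before it, all on the opposite strand. In Ifih1, Ifitm3, Trim30a and Eif2ak2 every match lay within the first 50 transcribed bases. A match is a description of the letters, and none in the Irf7 window says only that these letters were not in those 300 bases. Among members with a window that were also tested, the median correlation with the mean of the other members was 0.53 for the 11 with the motif and 0.44 for the 18 without it. Without arthritic replicate 3, an array described below, these medians were 0.31 and 0.31.

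Levels are given as log2(intensity + 16) and differences as arthritic minus non-arthritic on that scale. The table holds 45037 probe sets other than controls, and 27022 with a mean at or above the 40th percentile were tested. Median intensity per array lay between 110.6 and 183.2 on arrays that had been scaled to a common trimmed mean. Spleen markers were well measured: the B cell genes Cd79a and Ms4a1 averaged 13.08 and 13.09, the T cell gene Cd3d 11.47 and the red pulp macrophage gene Spic 11.65. Acinar pancreas genes averaged 4.54 to 6.15 log2 units above their gene means on 3 arrays, arthritic replicate 8 and non-arthritic replicates 5 and 6, and at most 0.54 above on the other 33. The arrays were clustered on their hybridisation controls, with the number of clusters set to 3. The clusters are called spike-in batches A, B and C here, A being the one with most arthritic arrays. They held 9, 6 and 3 arthritic and 4, 10 and 4 non-arthritic arrays. Batch and group are thus partly mixed. No source used here says what the batches stand for.

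The comparison of the groups asked whether the interferon programme differed between arthritic and non-arthritic spleens. Levels leaned higher in arthritic mice: the difference was above 0 for 34 of the 38 members, with a median of 0.23, against 50.9% of all tested probe sets and a median of 0.003. The lean was not even across the arrays: 34 of 38 lay above 0 within batch A and within C, but 23 of 38 within B, the largest batch, where 52.6% of all probe sets did, and 30 of 38 without arthritic replicate 3. No member passed the adjusted threshold of 0.05 in limma (0 of 37, lowest adjusted p = 0.0931 for Xaf1), where 0.0481% of the tested probe sets were called higher. At an unadjusted p under 0.05, 18 of 37 members were higher and 0 lower, beside 8.86% and 6.87% of all tested probe sets. The Wilcoxon rank-sum test called 0 members and 0 of all tested probe sets after adjustment. At an unadjusted p under 0.05 it gave 17 members, beside 4155 of the 27022 tested probe sets, in either direction. The replicates come from separate mice, so the errors hold the spread between animals.

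**Figure D1:**
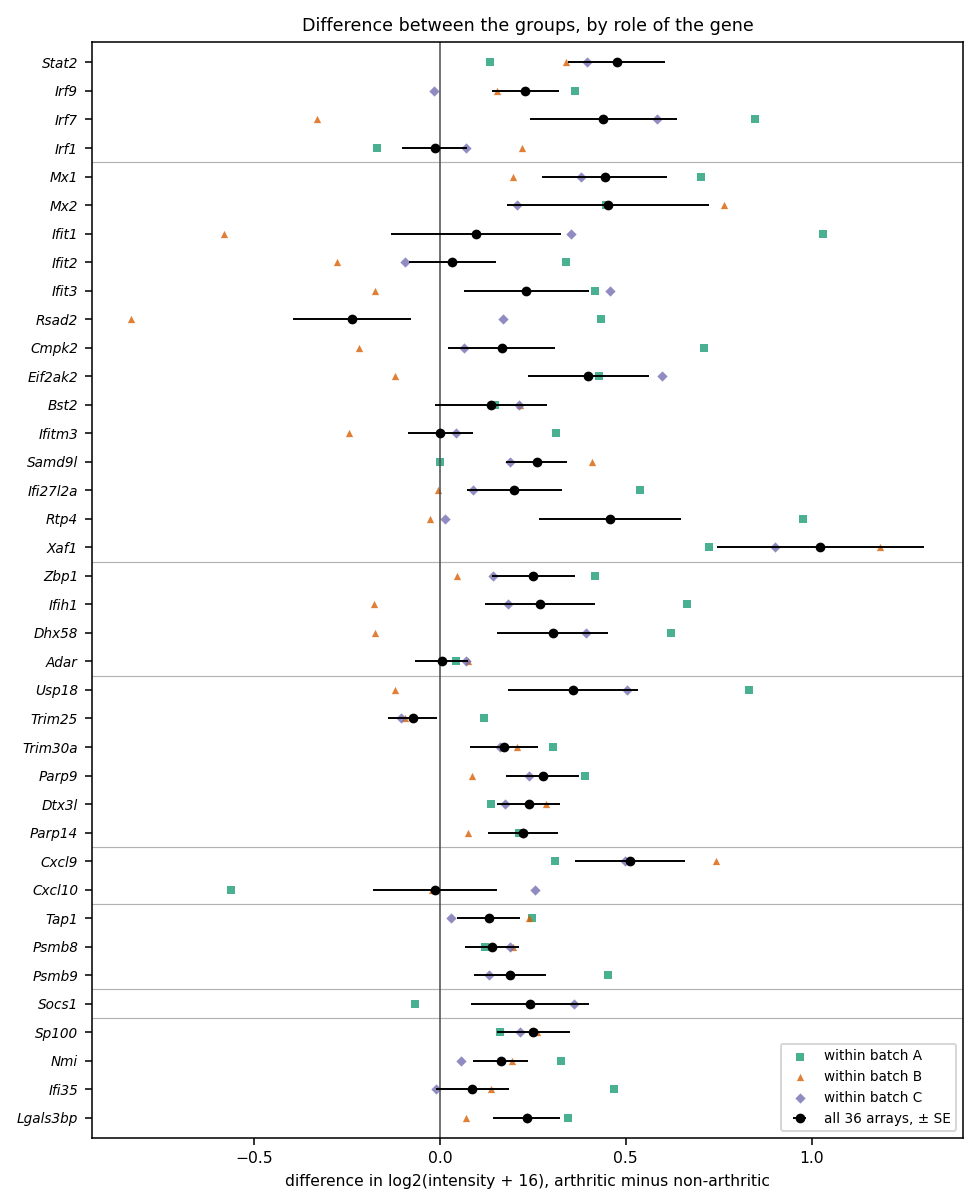
Arthritic minus non-arthritic difference in log2(intensity + 16) for 38 interferon-stimulated genes, grouped by role with grey lines between roles. Black points with bars are the difference ± SE over all 36 arrays, and coloured symbols are the differences within spike-in batches A, B and C. In all, 34 of 38 black points lie above 0, and the batch B triangles of Rsad2, Ifit1 and Irf7 lie below 0 while their batch A squares lie above.

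Of the 4 transcription factors, Stat2 had the smallest p. Its level ran from 8.66 through a median of 9.50 to 10.34 in arthritic mice and from 8.61 through 8.89 to 9.82 in non-arthritic mice. The ranges overlapped, and the median of the non-arthritic group was exceeded in 17 of the 18 arthritic mice. The difference was 0.48 (SE 0.13, limma adjusted p = 0.0952), a ratio of 1.39, and the second Stat2 probe set differed by 0.31. Stat2 passed in some other fits: adjusted p was 0.0354 without non-arthritic replicate 2, 0.0456 without non-arthritic replicate 5 and 0.0419 without the 3 arrays high in pancreas genes, fits in which limma called 1.05%, 0.659% and 0.566% of all probe sets higher. Stat2 also moved with the batches. Its 4 non-arthritic arrays of batch A lay between 9.55 and 9.82, while those of batch B lay between 8.61 and 9.16, and with the batch in the model the difference was 0.28 (limma adjusted p = 0.206).

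Irf9, the DNA-binding partner of Stat2, ran from 10.40 through 10.86 to 11.66 in arthritic and from 10.07 through 10.67 to 11.06 in non-arthritic mice. Its difference was 0.23 (SE 0.09, limma adjusted p = 0.212), with overlapping ranges. Irf7 ran from 9.19 through 10.15 to 12.25 in arthritic mice and from 9.28 through 9.91 to 10.97 in non-arthritic mice. For Irf7, 4 arthritic mice lay above every non-arthritic mouse, and the lowest value was also arthritic. Irf7 differed by 0.44 (SE 0.20, limma adjusted p = 0.272) over all arrays, while its difference was above 0 within batches A and C and below 0 within B. Irf1, the factor more closely tied to interferon gamma, ran from 10.98 through 11.63 to 12.09 in arthritic and from 11.29 through 11.65 to 12.03 in non-arthritic mice. Its difference was -0.01 (SE 0.09).

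**Figure D2:**
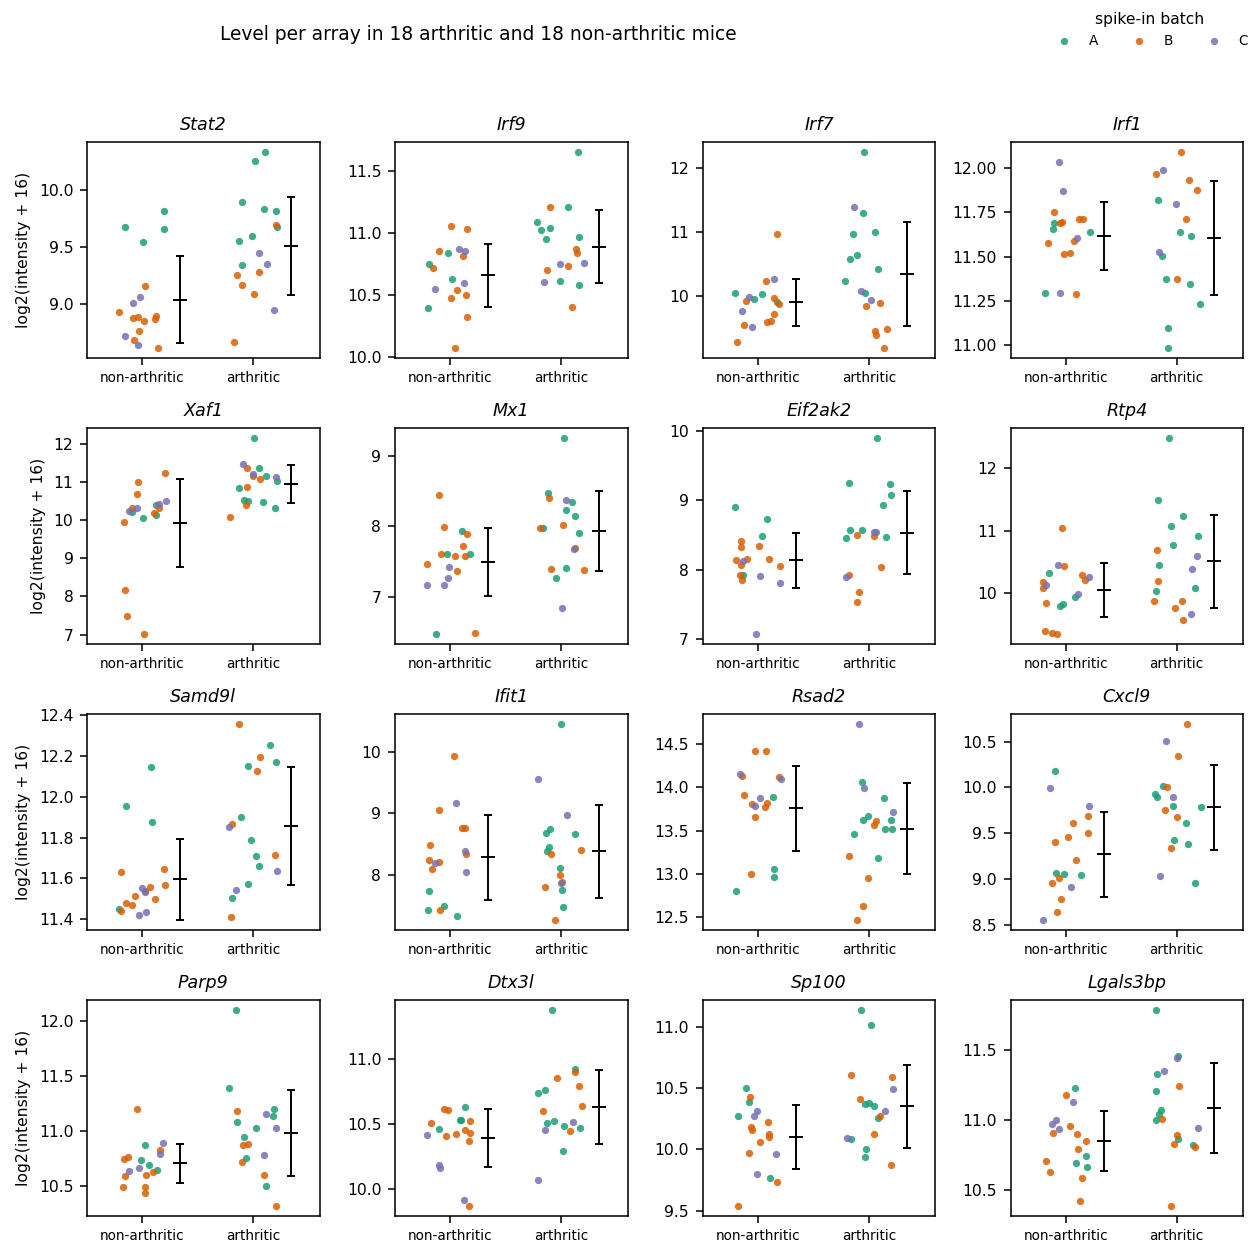
Level, log2(intensity + 16), of 16 interferon-stimulated genes in each mouse, with non-arthritic arrays on the left and arthritic arrays on the right of each panel. Each point is 1 array coloured by spike-in batch, and the black marks beside the points are the mean ± SD of 18 mice. The groups overlap in every panel, 3 non-arthritic points stand far below the rest for Xaf1, and non-arthritic batch A arrays stand above the other non-arthritic arrays for Stat2.

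Among the 14 antiviral effectors 13 differences were above 0, with a median of 0.22, and 5 of the 13 tested had an unadjusted p under 0.05. Xaf1, a pro-apoptotic gene induced by interferon, had the largest difference of all members. Its level ran from 10.07 through 11.04 to 12.16 in arthritic mice and from 7.02 through 10.27 to 11.24 in non-arthritic mice. The 3 lowest mice were all non-arthritic, replicates 3, 17 and 4, at 7.02, 7.47 and 8.17. The difference was 1.02 (SE 0.28, limma adjusted p = 0.0931), a ratio of 2.03. The other Xaf1 probe set differed by -0.40 (limma adjusted p = 0.552), in the opposite direction, and correlated with the first at -0.35 over the 36 arrays. With both averaged the difference was 0.31.

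Mx1, a GTPase that blocks influenza virus replication, ran from 6.85 through 7.97 to 9.25 in arthritic and from 6.48 through 7.58 to 8.45 in non-arthritic mice. Its difference was 0.44 (SE 0.17, limma adjusted p = 0.197). Eif2ak2, the double-stranded RNA kinase PKR, ran from 7.53 through 8.52 to 9.90 against 7.08 through 8.13 to 8.91. It differed by 0.40 (SE 0.16, limma adjusted p = 0.227) over all arrays and by -0.12 within batch B. Rtp4, a chaperone that also restrains the interferon response, ran from 9.58 through 10.42 to 12.49 in arthritic and from 9.35 through 10.11 to 11.05 in non-arthritic mice. Its difference of 0.46 (SE 0.19, limma adjusted p = 0.236) was 0.98 within batch A, -0.03 within B and 0.01 within C.

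Samd9l, an antiviral and growth-restraining protein, ran from 11.41 through 11.82 to 12.36 in arthritic and from 11.42 through 11.54 to 12.14 in non-arthritic mice. It exceeded the median of the non-arthritic group in 16 of the 18 arthritic mice, and differed by 0.26 (SE 0.08, limma adjusted p = 0.128). Ifit1, which binds viral RNA caps, ran from 7.26 through 8.36 to 10.46 in arthritic and from 7.33 through 8.22 to 9.93 in non-arthritic mice. Its difference was 0.10 (SE 0.23), so its wide spread lay within the groups, with an SD of 0.72 over all 36 arrays. The difference was 1.03 within batch A and -0.58 within batch B. Ifit2, Ifit3, Cmpk2, Bst2, Ifitm3 and Ifi27l2a had differences between 0.001 and 0.23 with no unadjusted p under 0.05, and the untested Mx2 differed by 0.45.

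Rsad2, whose product viperin makes a chain-terminating nucleotide, was the member with the lowest difference. Its level ran from 12.47 through 13.59 to 14.73 in arthritic and from 12.80 through 13.84 to 14.42 in non-arthritic mice, a difference of -0.24 (SE 0.16, limma adjusted p = 0.466). All 3 of its probe sets had a difference below 0. Within batch A the difference was 0.44, within C 0.17, and within B -0.83, where the median was 13.08 over the 6 arthritic and 13.86 over the 10 non-arthritic arrays. Batch B was the one batch in which limma called members: Rsad2 lower (adjusted p = 0.0372) and Cxcl9 and Samd9l higher (0.0463 and 0.0469), beside 1.45% of probe sets called lower and 1.28% higher there. When each of the 16 arrays of that batch was left out in turn, Rsad2 was called in 5 fits and Cxcl9 and Samd9l in 2 each, all 3 together in 1. None was called without arthritic replicate 14, 15, 16 or 18 or non-arthritic replicate 4, 7, 8, 13, 14, 15 or 17. The difference of Rsad2 stayed between -0.94 and -0.71 in those 16 fits.

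The difference between batches was also tested for every probe set as an interaction of group and batch. Of 37 members, 0 passed in limma (lowest adjusted p = 0.0682, Rsad2), where 0.037% of all probe sets did, and 9 had an unadjusted p under 0.05, beside 16.7% of all. Leaving out arthritic replicate 1, 2, 10 or 17, or non-arthritic replicate 6 or 18, brought Rsad2 past the threshold, with adjusted p down to 0.0119, in fits that called 0.27% to 3.37% of all probe sets. Batch itself, as a term beside the group, passed for 12 of 37 members in limma, beside 48.1% of all tested probe sets.

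The 4 nucleic acid sensors and editors all had differences above 0 over all arrays, though those of Dhx58 and Ifih1 lay below 0 within batch B. Zbp1, a sensor of Z-form nucleic acid, differed by 0.25 (SE 0.11) and Dhx58, the RNA helicase LGP2, by 0.30 (SE 0.15), with limma adjusted p = 0.268 and 0.315. Ifih1, the long double-stranded RNA sensor MDA5, differed by 0.27 (SE 0.15). Adar, which edits adenosine in double-stranded RNA, ran from 10.32 through 10.91 to 11.36 in arthritic and from 10.67 through 10.92 to 11.13 in non-arthritic mice. Its difference was 0.005 (SE 0.07), and its SD of 0.20 over all arrays was among the smallest of the members. The other Adar probe sets differed by 0.29 and -0.21 (limma adjusted p = 0.19 and 0.491).

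Of the 6 modifier genes of the ISGylation, ubiquitin and ADP-ribosylation group, 5 had differences above 0 and 4 had an unadjusted p under 0.05. Parp9 and Dtx3l, which form an ADP-ribosyl and ubiquitin ligase complex, overlap at their ends on chromosome 16 (Parp9 at 35938470 to 35972621, Dtx3l at 35926515 to 35939027, RefSeq, GRCm38.p6). Parp9 ran from 10.32 through 10.98 to 12.10 in arthritic and from 10.44 through 10.68 to 11.20 in non-arthritic mice, a difference of 0.28 (SE 0.10, limma adjusted p = 0.171). Dtx3l ran from 10.07 through 10.56 to 11.38 against 9.87 through 10.44 to 10.63, a difference of 0.24 (SE 0.08, limma adjusted p = 0.17). For Dtx3l, 8 arthritic mice lay above every non-arthritic mouse, the most for any member. Its second probe set differed by -0.19, and with all its probe sets averaged the difference was 0.03.

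Parp14, a further ADP-ribosyltransferase on the same stretch of chromosome 16, differed by 0.22 (SE 0.10), and Usp18, which removes Isg15 from proteins and blocks the type I receptor, by 0.36 (SE 0.18). Their limma adjusted p were 0.244 and 0.315. Trim25, a ubiquitin ligase that activates the RNA sensor RIG-I, had the smallest spread of all tested members, an SD of 0.19. It ran from 11.75 through 12.01 to 12.36 in arthritic and from 11.69 through 12.12 to 12.49 in non-arthritic mice, and differed by -0.07 (SE 0.07). The other Trim25 probe sets differed by -0.002 and 0.34 (limma adjusted p = 0.989 and 0.237). Trim30a, a negative regulator of inflammatory signalling, differed by 0.17 (SE 0.09), while its other probe set differed by -0.05.

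The chemokines Cxcl9 and Cxcl10, which draw activated T cells through Cxcr3 and are neighbours on chromosome 5, had unlike differences. Cxcl9 ran from 8.96 through 9.79 to 10.70 in arthritic and from 8.55 through 9.13 to 10.18 in non-arthritic mice. The ranges overlapped, with 16 of the 18 arthritic mice past the median of the other group, and the difference was 0.51 (SE 0.15, limma adjusted p = 0.101), a ratio of 1.43. Its other, dimmer probe set differed by 0.05 (limma adjusted p = 0.903), and with both averaged the difference was 0.28 (limma adjusted p = 0.263). For the brighter one it was above 0 within each batch, at 0.31, 0.74 and 0.50 in A, B and C, and 0.55 with batch in the model (limma adjusted p = 0.178). Cxcl9 passed without non-arthritic replicate 5 (limma adjusted p = 0.045) and without the 3 arrays high in pancreas genes (0.0492). Cxcl10 ran from 7.18 through 8.75 to 9.64 against 7.98 through 8.80 to 9.74, and differed by -0.01 (SE 0.17).

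The antigen-processing genes lie together in the major histocompatibility complex on chromosome 17: Psmb9 and Psmb8, catalytic subunits of the immunoproteasome, and Tap1, which carries peptides into the endoplasmic reticulum. Psmb8 ran from 11.77 through 12.29 to 12.63 in arthritic and from 11.69 through 12.16 to 12.46 in non-arthritic mice. The differences of Tap1, Psmb8 and Psmb9 were 0.13, 0.14 and 0.19 with SEs of 0.08, 0.07 and 0.10, and 0 of 3 had an unadjusted p under 0.05. With the batch in the model they were 0.20, 0.17 and 0.27, all with an unadjusted p under 0.05, as 6.12% of all probe sets were in the higher direction, and none past the adjusted threshold (lowest limma adjusted p = 0.25). Socs1, which blocks Janus kinases, differed by 0.24 (SE 0.16).

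Sp100 and Lgals3bp stand for the nuclear-body and secreted members. Sp100, a component of promyelocytic leukaemia bodies, ran from 9.88 through 10.33 to 11.14 in arthritic and from 9.54 through 10.14 to 10.50 in non-arthritic mice, a difference of 0.25 (SE 0.10, limma adjusted p = 0.21). Its other probe set differed by -0.19, and with both averaged the difference was 0.03. Lgals3bp, a secreted glycoprotein, ran from 10.38 through 11.02 to 11.79 against 10.42 through 10.88 to 11.23, a difference of 0.23 (SE 0.09, limma adjusted p = 0.199). Nmi, which binds Stat proteins, ran from 10.03 through 10.42 to 10.92 against 9.93 through 10.27 to 10.72 and differed by 0.16 (SE 0.07). Ifi35, its binding partner, differed by 0.09 (SE 0.10), and the other Ifi35 probe sets by 0.26 and 0.12. Over all members, 26 further probe sets name the same genes, and 17 of them had a difference in the direction of the one used.

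How much the genes varied within a group was compared as a question of its own, since the study looked for subpopulations of arthritic mice. The SD was larger in arthritic than in non-arthritic mice for 29 of 37 members, with a median ratio of 1.29, against 55.1% of 12427 tested genes and a median ratio of 1.04. The limma test of absolute deviations from the group median called 0 members (lowest adjusted p = 0.423, Irf7). On simulated arrays this test found 4 of 100 planted SDs multiplied by 2, so 0 called cannot decide on changes of that size. At an unadjusted p under 0.05 the test gave 5, Irf7, Ifih1, Irf1, Parp9 and Samd9l, all with a larger spread in arthritic mice, beside 5.95% of all tested probe sets. Irf7 had an SD of 0.81 in arthritic and 0.37 in non-arthritic mice. Its medians in batches A, B and C were 10.64, 9.47 and 10.08 in arthritic and 9.98, 9.80 and 9.87 in non-arthritic mice. Within batch B its arthritic range, 9.19 to 9.88, was narrower than the non-arthritic one, 9.28 to 10.97. Within A and C the arthritic range was the wider one. Over all mice the members' median SD was 0.36, against 0.30 for all tested genes, and 24 of 37 lay above the latter.

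At the top of that spread stood 1 mouse. Arthritic replicate 3, in batch A, had the highest level of all 36 arrays for 26 of the 37 tested members, while it was highest for 259 of 12427 tested genes, 2.08%. It was among the top 3 arrays for 30 members and below the median array for 1, Irf1. Ifit3, whose product binds viral RNA with Ifit1, stood at 11.34 there, 1.46 above the next array. Usp18 stood at 11.63 and Dhx58 at 10.33, 1.35 and 1.21 above the next, and Rtp4 and Irf7 at 12.49 and 12.25, 0.99 and 0.87 above it. Ifit3, Usp18 and Dhx58 are named here because of these values. Without this mouse the SD was larger in arthritic mice for 25 of 37 members, with a median ratio of 1.03. For all tested genes the share was then 55.7% and the median ratio 1.05. The median member difference between groups was 0.18 without it. At an unadjusted p under 0.05, 13 of 37 members were then higher, beside 7.62% of all tested probe sets.

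**Figure D3:**
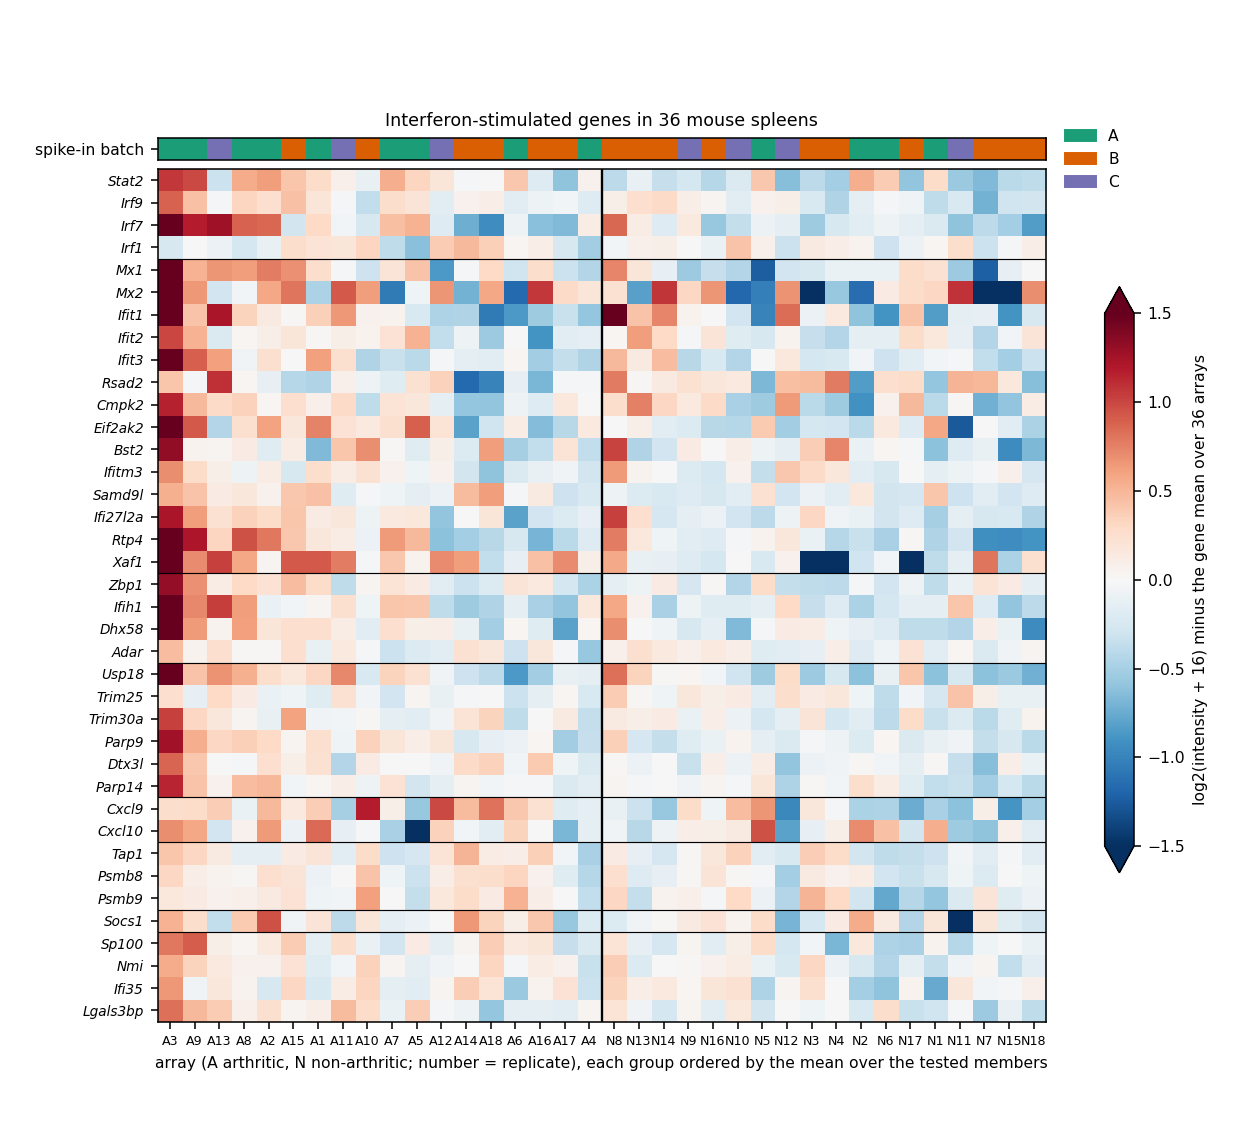
Level of 38 interferon-stimulated genes (rows, by role) on 36 arrays (columns), as log2(intensity + 16) minus the mean of the gene, with arrays ordered within each group by their mean over the members. Labels A and N give arthritic and non-arthritic replicates and the top bar gives the spike-in batch. Arthritic replicate 3, leftmost, is the darkest column and the highest array for 26 of the 37 tested members, and non-arthritic replicate 8 leads its own group.

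The mean over the 37 members, in log2 units from each gene's mean, ordered the mice along the programme. In arthritic mice it ran from -0.22 through a median of 0.06 to 1.05, and in non-arthritic mice from -0.27 through -0.13 to 0.34. Arthritic replicate 3 was highest at 1.05, arthritic replicate 9 was next at 0.46 and then came non-arthritic replicate 8 at 0.34, so high values were not confined to the arthritic group. In 16 of the 18 arthritic mice the mean exceeded the median of the non-arthritic group. By batch, arthritic medians were 0.16, -0.06 and 0.09 in A, B and C and non-arthritic medians -0.16, -0.13 and -0.09.

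**Figure D4:**
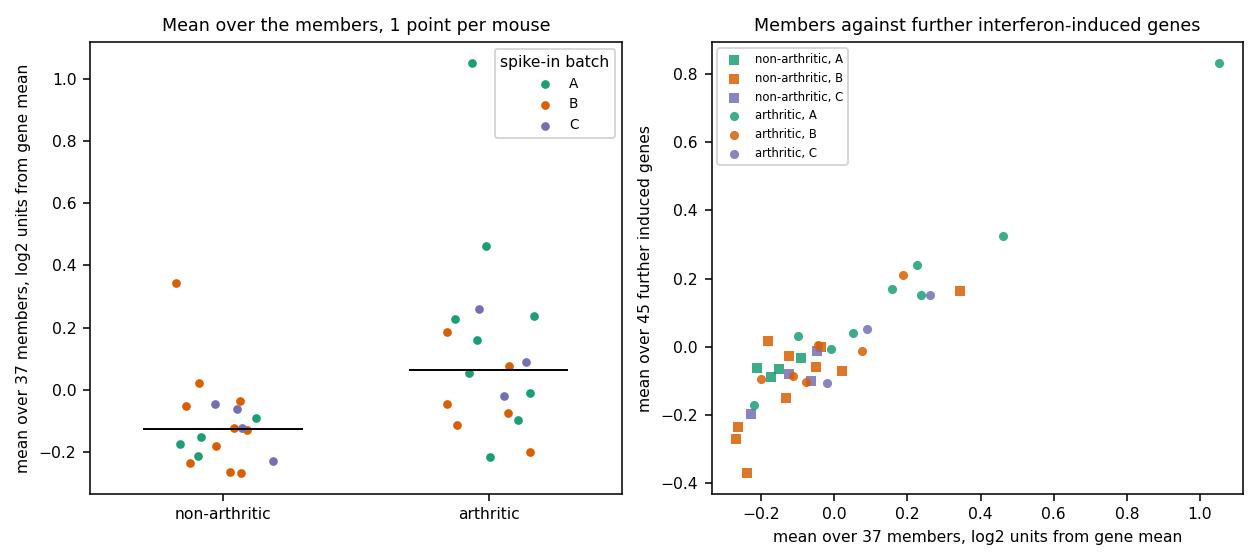
Left, the mean over 37 interferon-stimulated genes in each mouse, in log2 units from the gene means, with group medians as lines and points coloured by spike-in batch. Right, the same mean against that over 45 further interferon-induced genes, with circles for arthritic and squares for non-arthritic mice. Arthritic replicate 3 stands apart at 1.05 on the member mean, and the other mice form a continuous run.

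Further interferon-induced genes, a list of 56 that shares no gene with the members and of which 45 were tested, were read beside the members. Their mean correlated with the member mean at 0.93 over the 36 arrays and 0.85 without arthritic replicate 3, with group means removed. Of the 45, 40 had a difference above 0, with a median of 0.16, beside 50.9% of all tested probe sets above 0. Limma called 0 of them. At an unadjusted p under 0.05, 13 were higher and 0 lower, beside 8.86% and 6.87% of all tested probe sets. Slfn5, Ddx60, Uba7 and Trim21 had the smallest p, with differences of 0.60, 0.53, 0.19 and 0.26 (limma adjusted p = 0.116, 0.112, 0.11 and 0.168). The 15 genes outside the member list whose levels followed the member mean most closely over 36 arrays were Oas2 (0.84), Ifi44l (0.82), Oasl2 (0.78), Rnf213 (0.78), Slfn5 (0.75), Ddx58, Tdrd7, Phf11d, Ddx60, Irgm1, Iigp1, Ifi27, Parp12, Gm4951 and Oasl1. The member mean is led by arthritic replicate 3, without which the correlation of Oas2 was 0.77 and that of Irgm1 fell from 0.71 to 0.40.

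Interferons, their receptors and the sensors upstream of them were read from separate lists. Of 12 interferon genes listed, 9 had a probe set and 0 passed the low-signal limit, with means between 4.73 and 6.37, so no interferon could be tested. The arthritic and non-arthritic means were 6.49 and 6.24 for Ifnb1, and 6.03 and 6.11 for Ifng. Among 14 receptor and signalling genes, 10 had a difference above 0, 0 were called by limma and 2 were higher at an unadjusted p under 0.05, a share near the 8.86% of all probe sets: Pias1 by 0.26 and Ptpn6 by 0.21. Ifnar1, a chain of the type I receptor, differed by 0.17 (SE 0.08) and Ifngr2, of the interferon gamma receptor, by 0.19 (SE 0.10). Among 12 upstream sensors and adaptors, 8 differed above 0 and 4 were higher at an unadjusted p under 0.05, with 0 called by limma. The endosomal RNA sensor Tlr7 differed by 0.53 (SE 0.13, limma adjusted p = 0.0857), RIG-I, encoded by Ddx58, by 0.21, Irf3 by 0.15 and the adaptor Myd88 by 0.15.

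Marker lists of cell types followed the member mean less closely than the further interferon-induced genes did, and several hardly at all. The mean of 8 monocyte and macrophage markers correlated with the member mean at 0.41 (0.28 without arthritic replicate 3) and that of 5 natural killer markers at 0.36 (0.27). The 8 plasmacytoid dendritic cell markers, of the main type I interferon-producing cell, correlated at -0.10 (0.02), and the B and T cell markers at -0.13 and -0.02 (0.06 and 0.23). Red pulp macrophage, neutrophil and erythroid markers gave 0.24, 0.18 and 0.11 (0.10, 0.08 and 0.02). The monocyte and macrophage mean ran from -0.64 to 0.65 in arthritic and from -0.33 to 0.39 in non-arthritic mice. By batch it ran from 0.002 to 0.65 in A, from -0.64 to -0.01 in B and from -0.23 to 0.14 in C. The natural killer mean ran from -0.22 to 0.93 in A, from -0.83 to 0.08 in B and from -0.45 to -0.13 in C. Between the groups 6 of the 8 monocyte and macrophage markers had a difference above 0, and 0 were called. The stroma markers stood out more between the groups: all 6 had a difference below 0, with a median of -0.46, and 5 an unadjusted p under 0.05, beside 6.87% of all probe sets, with 0 called by limma (lowest adjusted p = 0.0975, Col3a1, a fibrillar collagen, at -0.42). Their mean ran from -1.22 through -0.30 to 0.66 in arthritic and from -0.83 through 0.34 to 1.09 in non-arthritic mice, with medians of -0.76, 0.43 and 0.35 in batches A, B and C, and it correlated with the member mean at -0.13 (0.13 without arthritic replicate 3). Of 7 T cell markers 2 were lower at an unadjusted p under 0.05, Cd3e (difference -0.47) and Cd4 (-0.29), and 1 was higher, Cd8a (0.30). An RNA quality measure, the 3 prime to 5 prime ratio of actin probe sets, correlated with the member mean at -0.31, and that of Gapdh at -0.19. The part of these cells and of RNA quality in the programme's spread was not tested.

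Co-variation among the members was measured after removing the group means, over 666 pairs of the 37 members. The median Pearson correlation was 0.33, against 0.005 between tested genes in general, and 564 pairs were above 0. By permutation of the mice within groups, two-sided and adjusted over all 666 pairs, 286 pairs passed, 281 of them positive. Without arthritic replicate 3 the median was 0.19 and 162 pairs passed, 151 of them positive. With each batch centred within its group the median was 0.42 and 335 passed, 333 of them positive. Arthritic replicate 3 is part of these batch-centred values, and it was not left out together with the batches. The median was 0.44 in arthritic mice (0.27 without replicate 3) and 0.14 in non-arthritic mice. Within batches it was 0.66, 0.28 and 0.18 in A, B and C, and the value within A holds arthritic replicate 3. The share of positive or passing pairs among tested genes in general was not measured. The counts of such pairs given here, and those of Irf7 below, thus have no general share beside them.

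The members that followed the rest most closely were Rtp4 and Parp9, each at 0.87 with the mean of the others, then Ifit3 (0.85), Dhx58 (0.82), Usp18 (0.81) and Irf7 (0.80). Without arthritic replicate 3 these were 0.80, 0.75, 0.69, 0.66, 0.67 and 0.72. Irf1 (-0.08), Cxcl9 (0.07), Psmb9 (0.16), Socs1 (0.18) and Xaf1 (0.22) followed the rest least. Within the arthritic and the non-arthritic group, Xaf1 correlated with the rest at 0.65 and -0.04, and Cxcl9 at 0.003 and 0.22.

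**Figure D5:**
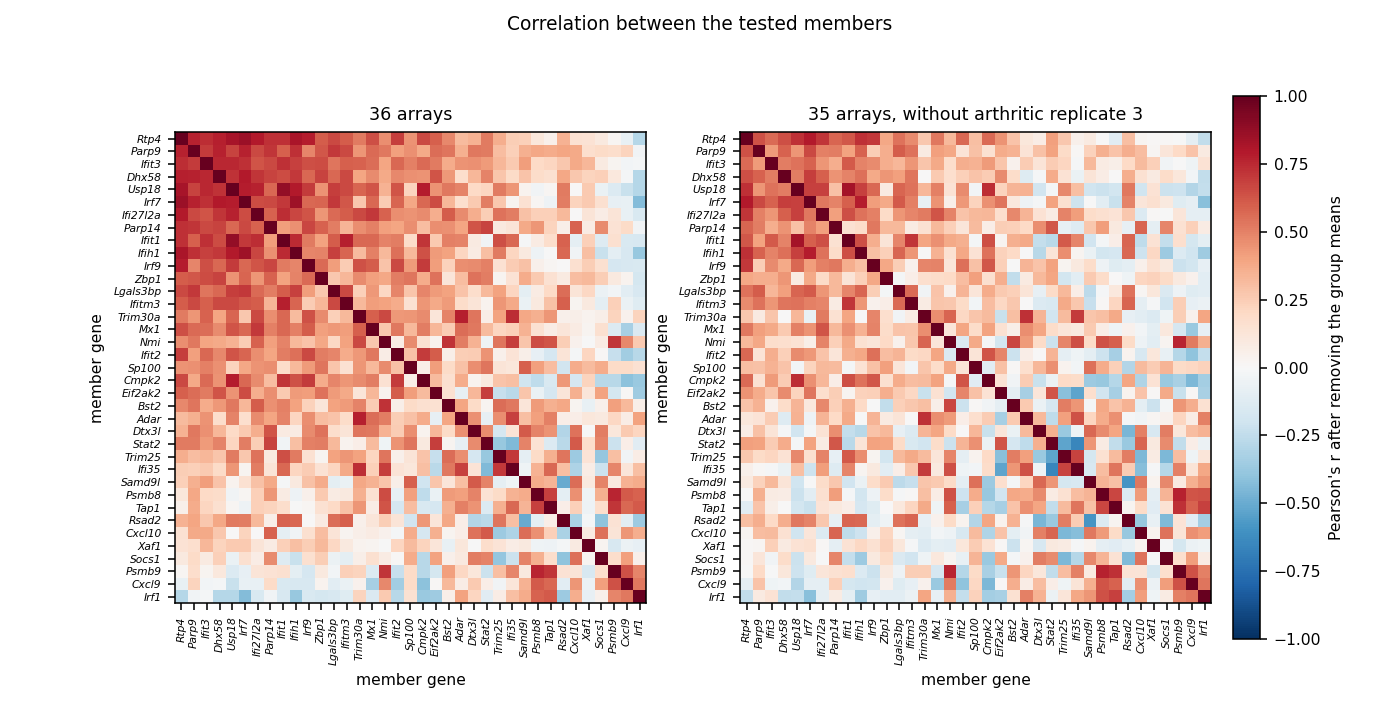
Pearson correlation between each pair of 37 interferon-stimulated genes over 36 arrays (left) and over 35 arrays without arthritic replicate 3 (right), after removing the group means, with genes ordered by their correlation with the mean of the other members. The block at the upper left runs from Rtp4 to Irf9, and Psmb8, Tap1, Psmb9, Cxcl9 and Irf1, toward the lower right with other genes between them, have positive correlations with each other in both panels. The median over all pairs is 0.33 on the left and 0.19 on the right.

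Irf7 was set against each other member, and 19 of its 36 pairs passed, all positive (16 without arthritic replicate 3, 26 with batch removed). Its closest partner was Rtp4, with r = 0.86 and rho = 0.78 over 36 arrays (permutation p = 1e-05 for each, the smallest that 100000 permutations give, adjusted p = 0.000208 and 0.000444). Leaving out the 2 mice farthest from the median of Irf7, arthritic replicates 3 and 13, gave r = 0.84, and within batches A, B and C it was 0.97, 0.80 and 0.67. Irf7 and Ifit1 gave r = 0.71 and rho = 0.54 (permutation p = 1e-05 and 0.00077, adjusted p = 0.000208 and 0.00641), r = 0.53 without the same 2 mice, and 0.92, 0.88 and 0.70 within the batches. Both relations were positive in arthritic (0.90 and 0.83) and non-arthritic mice (0.72 and 0.52).

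Irf1 leaned the other way over all arrays. Irf7 and Irf1 gave r = -0.43 and rho = -0.56 (permutation p = 0.0225 and 0.00133, adjusted p = 0.0512 and 0.00995), and r = -0.43 without the 2 farthest mice. Within batches A and B the correlation was -0.007 and -0.02, so the relation did not hold there, and in C it was -0.65 over 7 mice. With each batch centred within its group it was -0.16 (adjusted permutation p = 0.482). The antigen-processing genes had a median r of 0.59 with Irf1 and -0.05 with Irf7, while the 13 tested antiviral effectors had -0.15 with Irf1 and 0.58 with Irf7. For the chemokines the medians were 0.44 with Irf1 and 0.08 with Irf7. These medians do not take the batches into account. With each batch centred within its group, Tap1, Psmb8 and Psmb9 gave 0.58, 0.61 and 0.51 with Irf1. With Irf7 they gave 0.28, 0.26 and 0.13. Cxcl9 and Cxcl10 then gave 0.50 and 0.71 with Irf1, and 0.10 and 0.14 with Irf7.

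The pairs of Irf1 with the antigen-processing genes and chemokines were singled out after their values were seen. Irf1 and Tap1 gave r = 0.62 and rho = 0.56 (permutation p = 0.00013 and 0.00061, adjusted p = 0.00104 and 0.00535), and r = 0.51 without arthritic replicates 4 and 5, the 2 farthest mice. Within batches A, B and C it was 0.69, 0.44 and 0.63. Irf1 and Cxcl9 gave r = 0.53 and rho = 0.44 (permutation p = 0.00101 and 0.00802, adjusted p = 0.00484 and 0.0374), r = 0.43 without the same 2 mice, and 0.66, 0.35 and 0.52 within the batches. Psmb8 and Psmb9 gave r = 0.59 and 0.49 with Irf1, and Cxcl10 r = 0.36, whose adjusted permutation p of 0.0829 did not pass.

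Pairs of genes that work or lie together were also read. Psmb8 and Psmb9 gave r = 0.76 and rho = 0.77 (permutation p = 1e-05 for each, adjusted p = 0.000208 and 0.000444), with 0.73 without the 2 farthest mice and 0.89, 0.69 and 0.85 within batches A, B and C. Stat2 and Irf9 gave r = 0.51 and rho = 0.50 (permutation p = 0.00212 and 0.00255, adjusted p = 0.00793 and 0.0158), but r = 0.34 without arthritic replicates 3 and 9, and 0.83, 0.59 and -0.21 within the batches. Parp9 and Dtx3l gave r = 0.53 and rho = 0.23 (permutation p = 0.00374 and 0.183, adjusted p = 0.0125 and 0.32), and r = 0.22 without those 2 mice, both of batch A, so the value over all arrays rested on them. Within batches A, B and C it was 0.92, 0.32 and 0.92. With each batch centred within its group it was 0.70 (adjusted permutation p = 0.00079). The batch A value and the batch-centred value both include those 2 mice. Cxcl9 and Cxcl10 gave r = 0.44 and rho = 0.43 (permutation p = 0.00727 and 0.0103, adjusted p = 0.0216 and 0.0415), with 0.43 without the 2 farthest mice and 0.72, 0.19 and 0.86 within the batches.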

How the data were processed

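Spleen RNA of 18 arthritic and 18 non-arthritic mice was measured on 1 array each, with groups and replicate numbers taken from the titles. The authors deposited microarray intensity values, linear in scale, and the submitters' processing notes name MAS5 without a version. Values lay between 0.103 and 67960, and the mean trimmed by 2% at each end was the same on all 36 arrays, as global scaling gives. MAS5 values of dim probe sets are noisy, and a log2 difference of value + 16 understates their change.

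Here log2(intensity + 16) was used with no further normalization, 64 control probe sets were left out, and probe sets with a mean below the 40th percentile were not tested. The platform annotation names 1 gene for 34945 probe sets, of which 34741 matched RefSeq (GRCm38.p6) by gene identifier, several for 932 and none for 9160. Groups were compared with limma 3.58.1 in R 4.3.3 (trend in the variance prior, two-sided), adjusted by Benjamini-Hochberg over 27022 probe sets, and a Wilcoxon rank-sum test was run beside it. Spread was tested with limma on absolute deviations from the group median. Spike-in batches are 3 Ward clusters of 18 hybridisation control probe sets, centred per array. Pair correlations used 100000 permutations within groups. Tested on simulated arrays of 27022 probe sets, the group comparison found 60 of 100 planted changes of 0.5 (log2) and 93 of 100 planted changes of 1, and the spread test 4 and 43 of 100 at SDs multiplied by 2 and 3. The simulated noise was normal and independent between probe sets and arrays, with no batches. Permutations and figures used scipy 1.17.1, pandas 2.3.3, matplotlib 3.10.9 and numpy 2.4.6 under Python 3.11.15.

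The members and lists were chosen with earlier results of these data known. Ranges per group are given for the 12 members of smallest p, any member past a threshold, the 4 transcription factors and the 4 members each of largest and smallest SD; for other lists up to 4 genes of smallest p are named, and 15 genes that follow the member mean. Irf1 pairs, Ifit3, Usp18, Dhx58, Ifnb1, Ifng, Ifnar1, Ifngr2 and the spleen markers were named otherwise. Other pseudocounts, quantile normalization, no filter, no trend, blocks, array subsets and probe set means were tried. The number of arrays limits the precision.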

Additional observations from a re-analysis of the deposited data

How the results depend on the processing

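The count of members called between the groups was 0 in the main analysis and under other pseudocounts, quantile normalization, no filter, no trend, a block for spike-in batch, the Gapdh ratio as a covariate, probe set means and the Wilcoxon test. It was 2 without the 3 arrays highest in pancreas genes, 0 when the batch was added to that fit, 3 within batch B, and 0 to 2 when 1 array was left out in turn (1 without non-arthritic replicate 2, 2 without non-arthritic replicate 5). Within batch B the count of 3 became 0 to 5 when 1 array was left out (5 without arthritic replicate 17, where 8.14% of all probe sets were called). The interaction count of 0 became at most 1 (range 0 to 1) when 1 array was left out. The median member difference was 0.35 within batch A and 0.081 within B, and 0.18 to 0.25 with 1 array left out. The median pairwise correlation was 0.66 within A and 0.18 within C, and 0.19 to 0.35 with 1 array left out. Among the 12 members of smallest p, the differences that changed sign were those of Samd9l within A (-0.000168), Irf9 within C (-0.016), Eif2ak2 within B (-0.12) and Rtp4 within B (-0.026). Over all 38 members, 4, 13 and 6 changed sign within A, B and C. For the same 12, 588 other values kept their direction and side of the threshold, 8 passed it and 4 changed sign. The causes were not tested.

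Replicate numbers are shared between the groups, and same-numbered mice leaned the same way in part: the correlation of their deviations was above 0 in 13 of 18 pairs and over 0.1 in 10 (median 0.135, range -0.24 to 0.47), short of every pair, and 3 of 18 matched their own number best. With the replicate number as a block, the count of members called was 1, where 1.0% of probe sets were called higher (Stat2, limma adjusted p = 0.0406), and of probe sets 369 against 13; with the Gapdh ratio added to the block it was 0. Probe sets called were 0 with no filter, no trend or the batch block, 1 after quantile normalization, 2 with the Gapdh ratio and 236 without the 3 pancreas-high arrays. The actin ratio limit of 3 removed no array.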
